A study of Mus musculus with 9 samples.

Results

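Toll-like receptors (TLRs) and the proteins that let them work were followed in kidneys of mice with and without Trex1, a gene whose loss is known to switch on the cGAS-STING DNA-sensing pathway. The 9 genes, taken by name, were the receptors Tlr2, Tlr3, Tlr4, Tlr7, Tlr8, Tlr9 and Tlr13, the signalling adaptor Myd88 and the endosomal chaperone Unc93b1, out of 54532 gene identifiers counted in each of 9 RNA-seq libraries. Of these 9 genes, 8 had enough reads for a test and Tlr8 did not. There were 3 libraries from wild-type (WT) kidneys, 3 from Trex1-/- kidneys given PBS and 3 from Trex1-/- kidneys given SN-011. All mice were on the C57BL/6J background. The Trex1-/- mice came from intercrosses of heterozygotes and lack the exonuclease TREX1, which degrades cytosolic DNA. They were treated daily from an age of 1 month for 2 weeks by intraperitoneal injection, either with SN-011 at 10 mg/kg, an antagonist of STING, or with its vehicle, a Tween detergent in PBS. The WT mice were purchased at 4 to 8 weeks of age and are not stated to be littermates, and the labels give them no age at collection and no injection. The vehicle-treated kidneys are called Trex1-/- PBS below.

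TLRs are receptors of innate immune cells that recognise molecules of microbes and, in some settings, of dying host cells. TLR2 and TLR4 sit at the cell surface, where TLR2 senses bacterial lipoproteins and TLR4 senses lipopolysaccharide. TLR3, TLR7, TLR8, TLR9 and TLR13 sense nucleic acids inside endosomes, where UNC93B1 carries them, and every TLR here except TLR3 signals through MyD88. cGAS-STING is a separate route that senses DNA in the cytosol, so the comparisons ask how the genes of one nucleic-acid sensing system stood when another was active, and when that other was inhibited.

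Each library held between 16118813 and 21928965 counts, so that a count of 3 corresponded to 0.135 to 0.186 CPM (the count scaled to the TMM-normalised library size). Kidney markers were abundant in all 9 libraries, with 6570 to 8260 CPM summed over 4 proximal tubule genes and 333 to 455 CPM over 3 podocyte genes. Trex1 had 0 counts in every library, WT included, and since its exons lie within those of Atrip, the genotype could not be checked from it. The libraries differed in sex-linked transcripts: all 3 Trex1-/- PBS libraries, WT replicate 3 and SN-011 replicate 2 carried Y-linked reads, while the other 4 carried Xist. SN-011 replicate 2 also stood furthest from its own group, differing from the other SN-011 libraries by 60 to 68.1 times the counting variance. All other pairs within a group were at 7.18 to 28.7 times. The 28.7 belongs to the pairs of WT replicate 3, which likewise join a Y-linked and an Xist library. Pairs of libraries alike in these transcripts were at 7.18 to 14.1. For SN-011 against PBS, the values of the 8 tested genes are therefore also given without SN-011 replicate 2. In that fit every PBS library carries Y-linked reads and every SN-011 library carries Xist. Treatment and sex-linked transcripts cannot be told apart there.

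The promoters of the genes that passed the test in any comparison, Tlr2 and Tlr3, are shown with that of the adaptor Myd88, each as the RefSeq window from 250 bases before to 50 bases after the annotated start on GRCm38.p6, 5′ to 3′ on the gene's strand. They are shown so that the letters around each RefSeq start can be read beside the values of the gene. For Tlr3 and Myd88 the whole window lies inside the GENCODE span of the gene given below, so it is not upstream of that span. Capitals mark matches, on either strand, to the core of an interferon-stimulated response element (ISRE, GAAANNGAAA), a gamma-activated sequence (GAS, TTCNNNGAA) or an NF-κB site (GGGNNTTTCC).
Tlr2, chr3:83841559-83841858, minus strand: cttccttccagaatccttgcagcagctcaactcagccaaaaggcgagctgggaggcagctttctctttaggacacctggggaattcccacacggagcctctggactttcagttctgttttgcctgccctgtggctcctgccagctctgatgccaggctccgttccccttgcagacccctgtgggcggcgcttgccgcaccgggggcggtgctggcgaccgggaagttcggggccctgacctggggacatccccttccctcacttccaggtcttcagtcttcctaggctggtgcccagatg
Tlr3, chr8:45410331-45410630, minus strand: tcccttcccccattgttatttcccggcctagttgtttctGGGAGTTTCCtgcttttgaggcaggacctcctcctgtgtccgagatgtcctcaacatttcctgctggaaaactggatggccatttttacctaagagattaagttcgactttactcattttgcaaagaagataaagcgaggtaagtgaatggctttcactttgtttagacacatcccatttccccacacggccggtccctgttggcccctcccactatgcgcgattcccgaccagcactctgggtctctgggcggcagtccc
Myd88, chr9:119339969-119340268, minus strand: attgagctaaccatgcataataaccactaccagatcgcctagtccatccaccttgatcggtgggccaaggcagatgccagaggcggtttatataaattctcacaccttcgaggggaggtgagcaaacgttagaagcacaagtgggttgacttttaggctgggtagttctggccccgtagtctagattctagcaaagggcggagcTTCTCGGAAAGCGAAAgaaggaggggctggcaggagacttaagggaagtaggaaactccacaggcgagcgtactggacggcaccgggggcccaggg

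The Tlr3 window held 1 NF-κB match, which began at position -211 from the start. The Myd88 window held a GAS match that began at position -46 and an ISRE match that began at -40, and the 2 matches overlap. The Tlr2 window held none of the 3 patterns in these letters, and other spellings of these sites were not searched for. Over all 32851 promoter windows of the same length, 3.44% held the ISRE core, 8.3% the GAS and 1.63% the NF-κB pattern. Windows were at hand for 6 of the 9 genes, and among the others shown by name only, Tlr8 held a GAS match while Tlr9 and Tlr13 held none of the patterns. A match is a description of the letters, and the count data do not bear on what binds there.

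Levels were first compared between genes within the WT kidney, as CPM per kilobase of exon, since a longer gene collects more reads. The adaptors were the most abundant of the 9 genes. Unc93b1 stood at 10.5 ± 2.1 CPM per kb (SD, n = 3) and Myd88 at 7.96 ± 0.546, and the libraries of these neighbours overlapped. Tlr3 followed at 2.95 ± 0.287 and Tlr2 at 1.3 ± 0.0847, each with its libraries apart from the next gene in the order. Tlr4 came next at 0.711 ± 0.0535 CPM per kb. Tlr7 at 0.401, Tlr9 at 0.345 and Tlr13 at 0.338 CPM per kb had overlapping libraries and no order among them, and Tlr8 was lowest at 0.0582. Among TLRs outside the 9 genes, Tlr12, a mouse endosomal receptor for the profilin of parasites, was as abundant as Unc93b1 at 10.7 ± 1.89 CPM per kb. In Trex1-/- PBS kidneys Unc93b1, at 16.0 ± 0.0901 CPM per kb, stood apart above all other TLR pathway receptors and adaptors plotted, and Tlr4, the third of the 7 receptors in WT, was the sixth, with libraries that overlapped those of Tlr9, Tlr13 and Tlr7 above it.

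**Figure D1:**
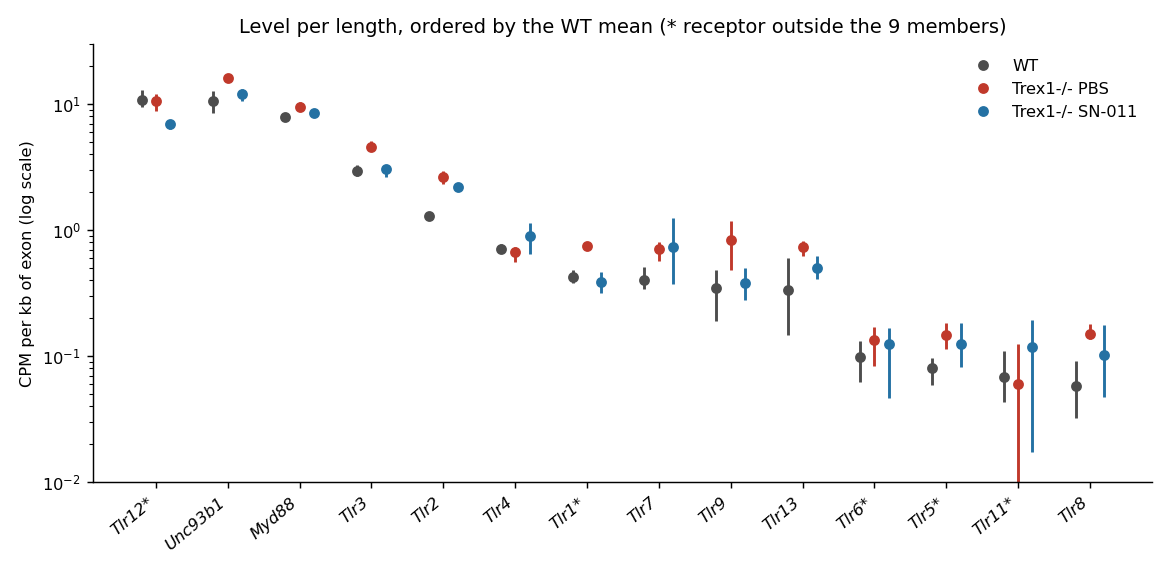
Level per length of the 9 genes and of 5 further TLRs (marked with an asterisk) in WT, Trex1-/- PBS and Trex1-/- SN-011 kidneys, in CPM per kb of exon on a log axis. Points are means of 3 libraries and lines run from the lowest to the highest library; the line of Tlr11 in Trex1-/- PBS, which includes a library at 0, is cut at the lower end of the axis.

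In Trex1-/- PBS against WT kidneys, 2 of the 8 tested genes rose, Tlr2 and Tlr3, and none fell, by edgeR's quasi-likelihood test at a Benjamini-Hochberg adjusted p under 0.05. Among all 16646 genes tested, 1.88% were called and 1.44% were called higher. In 7 of the 8 tested genes, every Trex1-/- PBS library exceeded every WT library, with no minimum gap required, against 13.1% of all genes tested by the same rule. One of the 7, Tlr9, was a tie to 3 digits, and in the other 6 the nearest libraries of the groups were at least 0.07 CPM apart. Tlr4 overlapped, and the untested Tlr8 was separated. The median log2 fold change of the 8 genes was 0.72, while that of all genes was 0.0.

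Among the surface receptors, Tlr2 (chr3:83836272-83841767 on GRCm38, minus strand) had 3.96, 3.66 and 4.17 CPM in WT replicates 1 to 3, 8.95, 8.06 and 7.02 in Trex1-/- PBS, and 6.91, 7.01 and 6.11 in Trex1-/- SN-011. All 6 Trex1-/- libraries lay above all WT libraries, and those given SN-011 lay just below the lowest given PBS. The fitted difference of Trex1-/- PBS from WT was 2.04-fold (log2 1.03 ± 0.157 SE, edgeR adjusted p = 0.00705). Tlr2 also rose in Trex1-/- SN-011 against WT, by 1.7-fold (log2 0.77 ± 0.157, edgeR adjusted p = 0.0479), where 1.28% of all genes were called and 0.823% were called higher. It was the only one of the 8 tested genes whose SN-011 libraries all exceeded WT, a separation that 11.8% of all genes showed. Between SN-011 and PBS, Tlr2 differed by -0.26 ± 0.153 on the log2 scale (edgeR adjusted p = 0.546), by -0.3 without SN-011 replicate 2 and by -0.17 without Trex1-/- PBS replicate 1.

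The rise of Tlr2 in Trex1-/- PBS kidneys was called in 17 of 20 alternative settings. A term for Y-linked reads gave 0.95 and an edgeR adjusted p of 0.0505, and the fit without Trex1-/- PBS replicate 1 gave 0.94 and 0.0505. Within the libraries that carry Y-linked reads, Tlr2 had 4.17 CPM in WT replicate 3, a mean of 8.01 in the 3 Trex1-/- PBS libraries and 7.01 in SN-011 replicate 2 (log2 0.94 between PBS and WT). With 1 WT library in that fit, no weight was put on its test. Within the libraries that carry Xist, WT had 3.66 and 3.96 CPM and SN-011 had 6.11 and 6.91. The call in Trex1-/- SN-011 against WT held in 6 of 20 settings, with edgeR, DESeq2 or limma adjusted p from 0.00593 to 0.179. It was lost on leaving out any 1 of the 9 libraries, while the log2 difference stayed at 0.71 to 0.83.

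Tlr4 (chr4:66827584-66930284, plus strand), the other surface receptor, had 4.29, 3.79 and 3.76 CPM in WT, 4.08, 4.03 and 3.11 in Trex1-/- PBS, and 3.57, 6.32 and 5.22 in Trex1-/- SN-011. The groups overlapped in every comparison. Trex1-/- PBS differed from WT by -0.08 ± 0.231 on the log2 scale (edgeR adjusted p = 0.902), and this small difference turned to 0.03 without Trex1-/- PBS replicate 3 and was -0.24 under the Y-linked term. SN-011 differed from PBS by 0.43 ± 0.23 (edgeR adjusted p = 0.51), and by 0.23 ± 0.231 without SN-011 replicate 2, its highest library (edgeR adjusted p = 0.63).

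**Figure D2:**
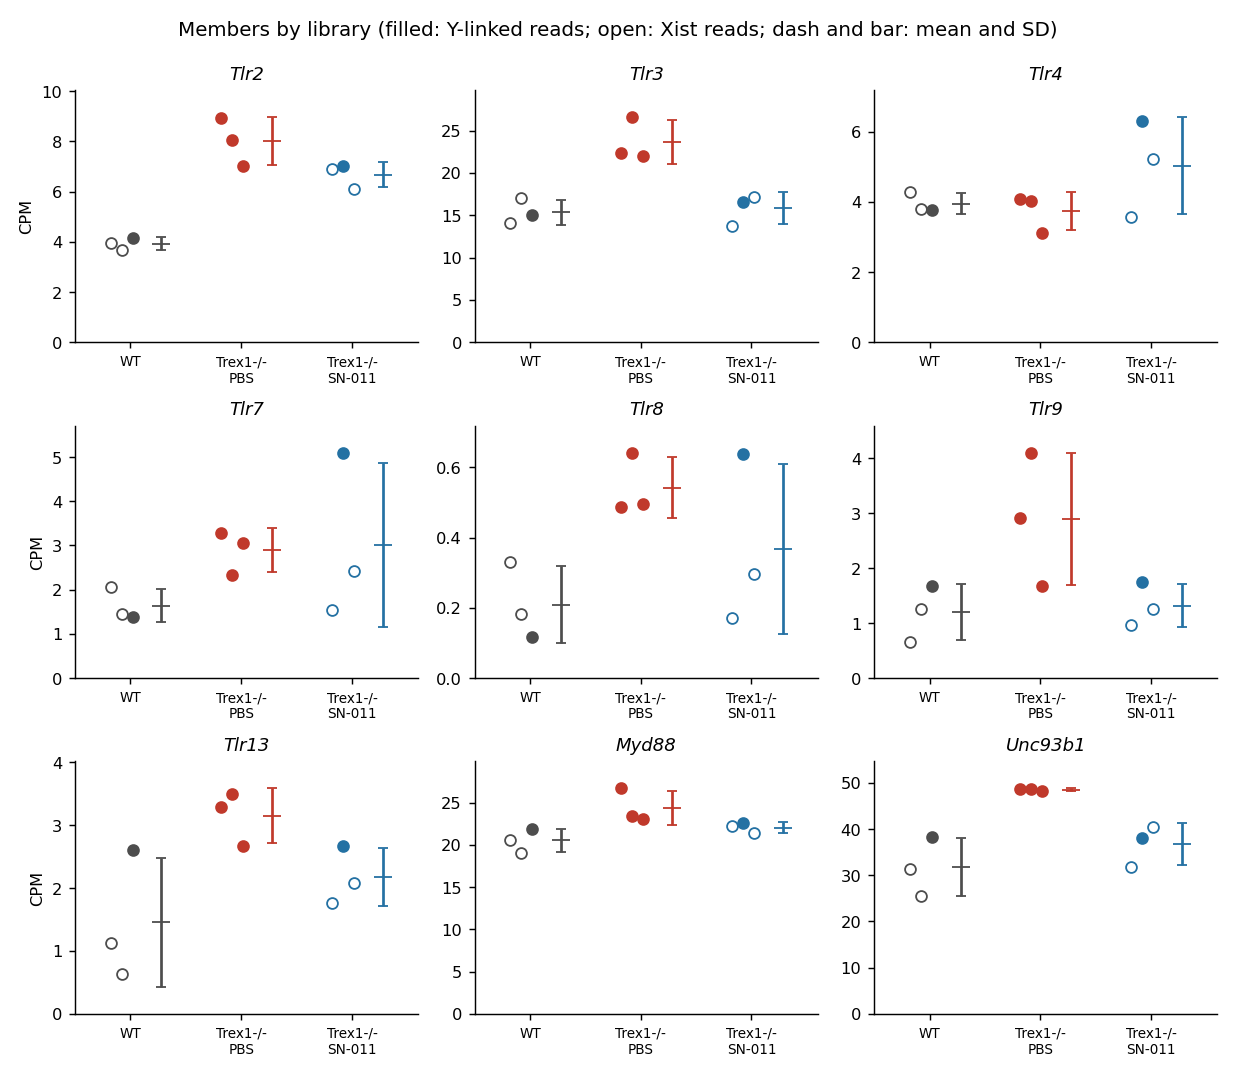
CPM of each of the 9 genes in each library of WT, Trex1-/- PBS and Trex1-/- SN-011 kidneys, 1 panel per gene with its own vertical axis from 0. Filled points are libraries with Y-linked reads, open points libraries with Xist reads, and the dash with its bar is the mean and SD of 3 libraries; Tlr2 is above WT in all 6 Trex1-/- libraries, whereas Tlr3 is at 22 to 26.6 CPM with PBS and at 13.7 to 17.2 with SN-011.

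Tlr3 (chr8:45395665-45411080, minus strand), the endosomal receptor for double-stranded RNA, which signals through TRIF rather than MyD88, was the most abundant receptor of the 9 genes. It had 14.1, 17.0 and 15.0 CPM in WT, 22.3, 26.6 and 22 in Trex1-/- PBS, and 13.7, 16.6 and 17.2 in Trex1-/- SN-011. The PBS libraries lay above all other libraries, and the SN-011 libraries lay among those of WT. Trex1-/- PBS exceeded WT by 1.54-fold (log2 0.62 ± 0.128, edgeR adjusted p = 0.0384), whereas SN-011 and WT differed by 0.04 ± 0.129 (edgeR adjusted p = 0.897). Of the exonic bases of Tlr3, 7.32% lie opposite the antisense gene Gm45542, and reads from these bases cannot be assigned to a strand where the counting did not use it.

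SN-011 differed from PBS by -0.58 ± 0.129 in Tlr3, a 1.5-fold lower level (unadjusted p = 0.00106), but the edgeR adjusted p was 0.21. DESeq2's Wald test did call this difference (adjusted p = 0.0255), as did edgeR's exact test (adjusted p = 0.038), and without SN-011 replicate 2 it was -0.62 ± 0.147 (edgeR adjusted p = 0.0521). The rise of Tlr3 in Trex1-/- PBS against WT also depended on single libraries. It held in 12 of 20 settings, was lost on leaving out any 1 of the 6 WT and Trex1-/- PBS libraries (adjusted p from 0.0729 to 0.194), and gave 0.61 with an edgeR adjusted p of 0.14 under the Y-linked term. The size of the difference stayed between 0.52 and 0.7 on the log2 scale in all of these fits.

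The ratio of Tlr3 to Tlr2 within a library, which no scaling between libraries can move, was looked at after the values of both genes were seen and is given without a test. Counts of Tlr3 divided by those of Tlr2 were 3.55, 4.64 and 3.6 in WT, 2.49, 3.3 and 3.13 in Trex1-/- PBS, and 1.98, 2.36 and 2.82 in Trex1-/- SN-011. Both Trex1-/- groups lay below WT without overlap, and the SN-011 and PBS ratios overlapped.

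**Figure D3:**
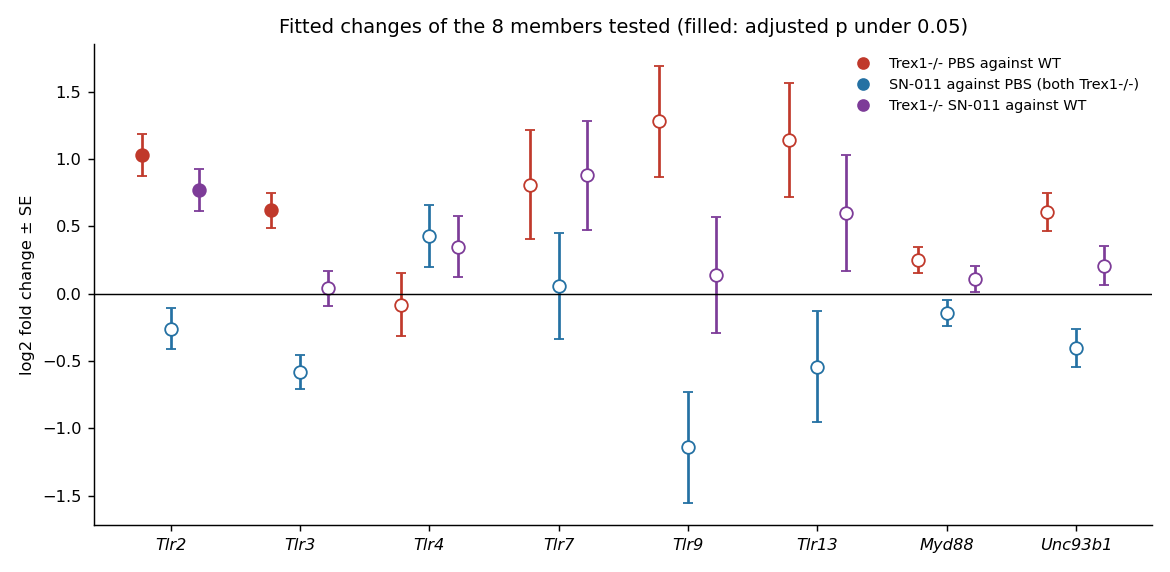
Log2 fold change with its standard error for the 8 tested genes in 3 comparisons, from 1 edgeR fit of 9 libraries. Filled points passed an adjusted p of 0.05: Tlr2 and Tlr3 in Trex1-/- PBS against WT and Tlr2 in Trex1-/- SN-011 against WT, with no point filled for SN-011 against PBS; the comparisons share libraries and are not independent of each other.

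Tlr7 and Tlr8, receptors of single-stranded RNA and its breakdown products, are neighbours on the X chromosome (chrX:167304929-167330558 and chrX:167242696-167264329, both minus strand). Tlr7 had 2.07, 1.45 and 1.39 CPM in WT, 3.29, 2.34 and 3.05 in Trex1-/- PBS, and 1.53, 5.1 and 2.43 in Trex1-/- SN-011. The PBS libraries exceeded WT without overlap, and the SN-011 libraries spread over both, with replicate 2 the highest of all 9. The difference of Trex1-/- PBS from WT was 0.81 ± 0.405 on the log2 scale (edgeR adjusted p = 0.373), and 0.34 under the Y-linked term (edgeR adjusted p = 0.835).

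The Tlr7 value under SN-011 rested on 1 library. SN-011 against PBS was 0.06 ± 0.393 with all libraries (edgeR adjusted p = 0.968) and -0.55 ± 0.314 without SN-011 replicate 2 (edgeR adjusted p = 0.364). Against WT, SN-011 was 0.88 ± 0.403 higher (edgeR adjusted p = 0.287), and 0.26 higher without that replicate. Tlr7 is X-linked, and Y-linked reads were present in SN-011 replicate 2 alone of its group. Within the libraries that carry Xist, Tlr7 had 1.45 and 2.07 CPM in WT and 1.53 and 2.43 in SN-011, and within those that carry Y-linked reads it had 1.39 in WT, 2.34 to 3.29 in Trex1-/- PBS and 5.1 in SN-011.

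Tlr8 was near the limit of detection. Its counts were 7, 4 and 2 in WT, 8, 11 and 8 in Trex1-/- PBS, and 3, 11 and 5 in Trex1-/- SN-011, or 0.116 to 0.33, 0.487 to 0.642 and 0.17 to 0.638 CPM. The PBS libraries lay above those of WT, and SN-011 replicate 2 was again the highest SN-011 library. Tlr8 did not pass the filter and was not tested in the main fit. Its ratio to the summed macrophage markers, described below, overlapped between the groups in every comparison. For Trex1-/- PBS against WT the log2 ratios differed by 0.82 (exact two-sided permutation p = 0.3).

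Tlr9 (chr9:106222598-106226883, plus strand), the receptor of unmethylated CpG DNA, had 0.66, 1.26 and 1.68 CPM in WT, 2.92, 4.09 and 1.68 in Trex1-/- PBS, and 0.963, 1.74 and 1.25 in Trex1-/- SN-011. The lowest PBS library and the highest WT library were equal to 3 digits, with 27 and 29 counts, so these groups met at their edges. The point estimate was the largest of the 8 genes at 1.28 ± 0.413 on the log2 scale for Trex1-/- PBS against WT, but it did not pass (edgeR adjusted p = 0.171), and it was 0.83 under the Y-linked term (edgeR adjusted p = 0.548). SN-011 against PBS was -1.14 ± 0.414 (unadjusted p = 0.0202, edgeR adjusted p = 0.344), with 17 to 30 counts per SN-011 library, and -1.39 ± 0.468 without SN-011 replicate 2 (edgeR adjusted p = 0.135). SN-011 and WT differed by 0.14 ± 0.434 (edgeR adjusted p = 0.898).

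Tlr9 lies 2.83 Mb from the targeted gene Trex1. Rpl29, a ribosomal protein gene 0.2 Mb from Tlr9 on the same chromosome, had a mean of 121 CPM in WT and of 5.02 and 4.5 CPM in Trex1-/- PBS and Trex1-/- SN-011. The fitted difference of Rpl29 in Trex1-/- PBS against WT was -4.59 on the log2 scale. Tlr9 had a mean of 1.2 CPM in WT, 2.9 in Trex1-/- PBS and 1.32 in Trex1-/- SN-011. The part of the region around Trex1 in the Tlr9 values was not tested.

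Tlr13 (chrX:106143204-106160493, plus strand), a mouse receptor of bacterial ribosomal RNA, had 1.13, 0.632 and 2.6 CPM in WT, 3.29, 3.5 and 2.67 in Trex1-/- PBS, and 1.76, 2.67 and 2.08 in Trex1-/- SN-011. WT replicate 3, which carries Y-linked reads, was the highest WT library and nearly reached the lowest PBS library. Trex1-/- PBS against WT was 1.14 ± 0.423 on the log2 scale (edgeR adjusted p = 0.235), and 0.6 under the Y-linked term (edgeR adjusted p = 0.6). Without WT replicate 3 it was 1.83 and passed (edgeR adjusted p = 0.0222), while among libraries with Y-linked reads alone, where WT replicate 3 is the only WT library, it was 0.28. SN-011 against PBS was -0.54 ± 0.412 (edgeR adjusted p = 0.656), -0.72 ± 0.462 without SN-011 replicate 2 (edgeR adjusted p = 0.419), and 0.1 under the Y-linked term.

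Among the adaptors, Unc93b1 (chr19:3935186-3949340, plus strand) had 31.4, 25.6 and 38.3 CPM in WT, 48.8, 48.6 and 48.3 in Trex1-/- PBS, and 31.7, 38.1 and 40.4 in Trex1-/- SN-011. The 3 PBS libraries were nearly equal and above the other 6, while WT and SN-011 overlapped. Trex1-/- PBS against WT was 1.53-fold (log2 0.61 ± 0.142) and just missed the threshold (edgeR adjusted p = 0.0621). The difference passed in 7 of 20 settings, among them the DESeq2 Wald test (adjusted p = 0.00521) and edgeR's exact test (adjusted p = 0.0093), and was 0.45 with an adjusted p of 0.238 under the Y-linked term. SN-011 against PBS was -0.4 ± 0.141 (unadjusted p = 0.0167, edgeR adjusted p = 0.324), and -0.44 ± 0.157 without SN-011 replicate 2 (edgeR adjusted p = 0.16).

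Myd88 (chr9:119335934-119341411, minus strand) had 20.6, 19.1 and 21.9 CPM in WT, 26.7, 23.4 and 23.1 in Trex1-/- PBS, and 22.2, 22.6 and 21.4 in Trex1-/- SN-011. The order of the groups was that of Unc93b1, but the differences were small. Trex1-/- PBS against WT was 1.19-fold (log2 0.25 ± 0.0961, edgeR adjusted p = 0.252) and SN-011 against PBS was -0.14 ± 0.0963 (edgeR adjusted p = 0.601; -0.17 without SN-011 replicate 2). Myd88 was called in none of the 20 settings of the comparison with WT. Of its exonic bases, 11.26% lie opposite Acaa1a, a peroxisomal gene of fatty acid oxidation, with the same limit on strand as for Tlr3.

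In SN-011 against PBS, 0 of the 8 tested genes and 0.0% of all genes were called by edgeR's quasi-likelihood test, which leaves the share called without use as a background. At an unadjusted p under 0.05 there were 3 of the 8 genes, Tlr3, Unc93b1 and Tlr9, and 1905 of the 16646 genes. The DESeq2 Wald test and edgeR's exact test each called 1 of the 8 genes, Tlr3, where they called 1.28% and 0.763% of all genes they tested, and limma-voom called 0 of either. In 5 of the 8 genes every SN-011 library lay below every PBS library, against 8.41% of all genes. These were Tlr2, Tlr3, Tlr13, Myd88 and Unc93b1, and for Tlr2 and Tlr13 the nearest libraries of the groups differed by no more than 0.01 CPM. The median log2 fold change of the 8 genes was -0.33, and that of all genes was -0.01.

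Since TLRs are expressed by leukocytes, the RNA of these cells was measured beside them. The summed level of 12 macrophage markers, none of them at 0, was 185 to 222 CPM in WT, 303 to 343 in Trex1-/- PBS and 179 to 279 in Trex1-/- SN-011, and 4 of the 12 (C1qa, C1qb, C1qc and Fcgr1) rose in Trex1-/- PBS against WT, beside 1.44% of all genes. Fcgr1 was called in all 20 alternatives, C1qa in 14, C1qc in 13 and C1qb, which passed at an edgeR adjusted p of 0.0483, in 9. Ptprc, the pan-leukocyte marker CD45, was at 9.76 to 12, 18.9 to 20.7 and 11 to 21.2 CPM in the same order, and 4 monocyte markers summed to 14.0 to 25.2, 47.6 to 51.8 and 28 to 41.4 CPM. Of these 4, Ly6c2 rose 6.78-fold and Plac8 2.83-fold in Trex1-/- PBS against WT, in all 20 alternatives, and both also rose in SN-011 against WT (3.72-fold and 2.13-fold, in 11 of 20 alternatives each). The 5 T cell markers summed to 2.64 to 3.82, 8.0 to 13.3 and 2.44 to 8.46 CPM, and 1 of them, Cd3g, rose in PBS against WT (3.73-fold, in 12 of 20 alternatives). Markers of plasmacytoid dendritic cells, which are known for Tlr7 and Tlr9, summed to 2.3 to 5.27 CPM with all groups overlapping. Those of conventional dendritic cells summed to 18.5 to 20.8 CPM in WT, 19.6 to 22.7 in PBS and 22.3 to 24.6 in SN-011. Here SN-011 lay above WT without overlap, a separation that 11.8% of all genes showed, and none of the 6 was called. Markers of B cells summed to 2.12 to 3.79 CPM in WT, 1.34 to 2.18 in PBS and 0.85 to 2.26 in SN-011. Those of neutrophils summed to 2.21 to 7.23, 6.19 to 12.2 and 6.23 to 13.2 CPM in the same order, with Ly6g at 0 in all WT and Trex1-/- PBS libraries. These sums overlapped and no gene of either list was called. The median log2 difference from WT was 1.71 in PBS and 1.6 in SN-011 over 5 tested neutrophil markers, and -0.35 and -0.75 over 2 tested B cell markers.

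Sums of kidney cell markers were compared as well. The 4 distal nephron markers summed to 10300 to 11900 CPM in WT, 9020 to 9510 in Trex1-/- PBS and 9420 to 10500 in SN-011. PBS lay below WT without overlap, a separation that 2046 of all 16646 tested genes showed. None of the 4 was called (smallest edgeR adjusted p = 0.253). The 3 podocyte markers summed to 333 to 369 CPM in WT and 374 to 455 in SN-011, without overlap and with none called. Of all genes, 11.8% lay higher in SN-011 than in WT without overlap. Of the 4 proximal tubule markers, whose sums overlapped, Slc5a2, the glucose transporter SGLT2, fell by 0.71 on the log2 scale in Trex1-/- PBS against WT (edgeR adjusted p = 0.0163, called in 13 of 20 alternatives), and the other 3 did not pass. Of all 16646 tested genes, 73 were called lower in this comparison. The part of these differences in the levels of the 9 genes was not tested. In a bulk kidney library, more cells of a type and more RNA per cell cannot be told apart.

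Set against 1000 CPM of macrophage markers in the same library, several of the genes stood differently. Tlr3 was at 75.9, 88.9 and 67.4 in WT, 72.2, 87.9 and 64.1 in Trex1-/- PBS and 76.2, 59.5 and 69.2 in SN-011, and Unc93b1 at 169, 134 and 172, at 158, 160 and 141, and at 177, 137 and 162. The groups overlapped in both genes, and the mean log2 ratios of Trex1-/- PBS and WT differed by -0.05 for Tlr3 and by -0.04 for Unc93b1. These differences depended on the marker: against Csf1r alone they were 0.34 for Tlr3, without overlap (exact two-sided permutation p = 0.1, the smallest possible), and 0.35 for Unc93b1, and against Ptprc alone -0.29 and -0.28, with overlap in the last 3 of these. Tlr2 was at 21.4, 19.2 and 18.7 in WT, 29.0, 26.6 and 20.5 in PBS and 38.6, 25.2 and 24.6 in SN-011. The Tlr2 ratio of SN-011 lay above WT without overlap (log2 difference 0.55), and that of PBS overlapped WT (0.35). Both depended on the marker: against Ptprc alone SN-011 overlapped WT (0.16), and against Csf1r alone PBS lay above WT without overlap (0.74).

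Tlr4 went the other way on this scale. It was at 23.2, 19.9 and 16.9 per 1000 CPM of markers in WT, 13.2, 13.3 and 9.05 in Trex1-/- PBS and 19.9, 22.7 and 21.0 in SN-011. The PBS libraries were the 3 lowest of 9, by 0.76 on the log2 scale below WT and by 0.86 below SN-011. Myd88 was also lower per macrophage marker in PBS, with 67.3 to 86.5 against 98.3 to 111 in WT. For each of these separations the exact two-sided permutation p was 0.1, the smallest possible, and over 27 such comparisons the smallest adjusted p was 0.675. Against Ptprc alone, Tlr4 was again lower in PBS than in WT (log2 -1.0, no overlap), whereas against Csf1r alone the groups overlapped (-0.37). Myd88 in PBS was likewise below WT against Ptprc (-0.66, no overlap) but not against Csf1r (-0.03, overlap). The part of leukocyte content in the levels of the 9 genes was not tested beyond these ratios.

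**Figure D4:**
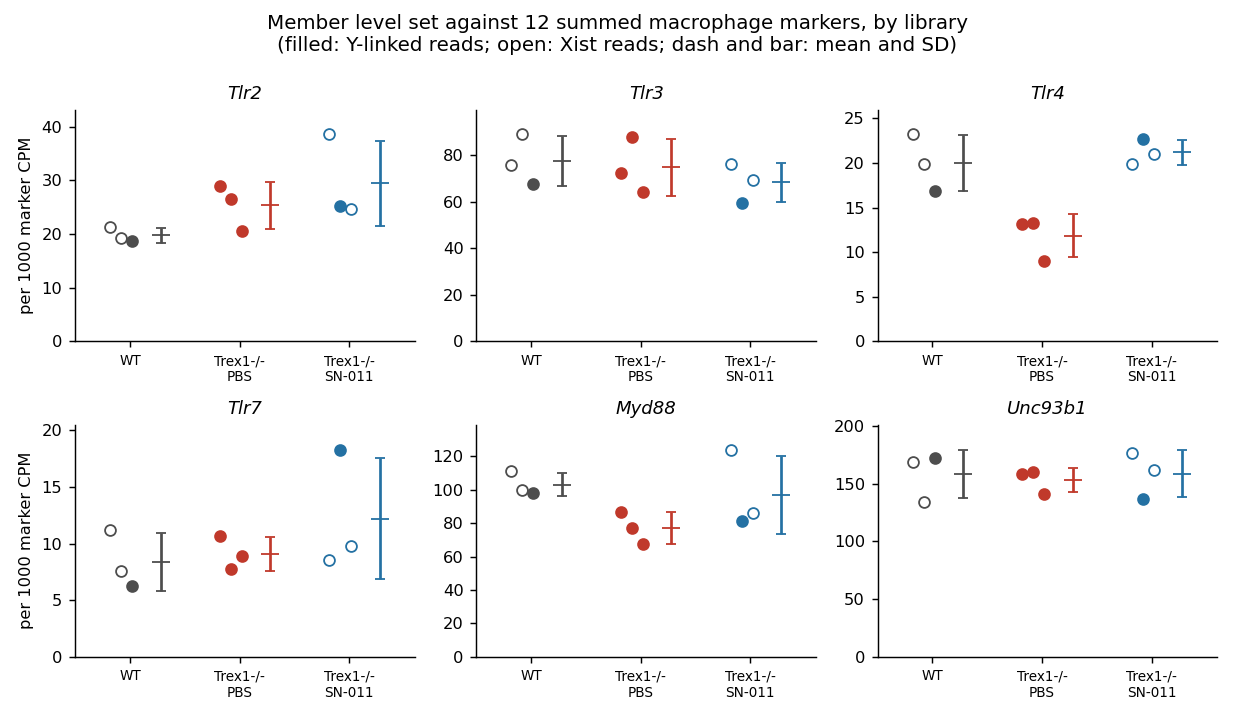
Level of 6 of the genes per 1000 CPM of 12 summed macrophage markers in the same library, by group, each panel with its own axis from 0. Filled points are libraries with Y-linked reads, open points libraries with Xist reads, and the dash with its bar is the mean and SD of 3 libraries; Tlr4 is at 9.05 to 13.3 in Trex1-/- PBS and at 16.9 to 23.2 in WT, while Tlr3 and Unc93b1 overlap in all 3 groups.

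The rest of the TLR pathway was described by 8 lists with 96 genes in all, of which 83 were tested, the 9 genes included. In Trex1-/- PBS against WT 6 rose and none fell: Tlr2, Tlr3, Irf7, Irf1, Lgals9 and Ctss. Leaving out the 9 genes themselves, 4 of 75 rose, and the median log2 fold change was 0.09. By list, 2 of 10 tested receptors rose, 2 of 10 transcription factors, 1 of 17 genes of endosomal trafficking and processing and 1 of 11 inhibitors. None of the 18 kinases and ubiquitin ligases, 6 surface co-receptors, 4 tested TIR adaptors or 7 tested MyD88 and NF-κB target genes passed. With 1.44% of all genes called higher, a count of 0 in lists of these sizes is near the background and is no result about them.

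Irf7, the interferon regulatory factor that MyD88 engages downstream of TLR7 and TLR9 and that is itself interferon-induced, had 20.8, 24.1 and 37.4 CPM in WT, 202, 272 and 222 in Trex1-/- PBS and 66.9, 118 and 110 in SN-011. The 3 groups did not overlap. It rose 8.46-fold in Trex1-/- PBS against WT (edgeR adjusted p = 0.000237) and was also higher in SN-011 against WT (log2 1.84, edgeR adjusted p = 0.0103), while SN-011 against PBS was -1.24 (edgeR adjusted p = 0.203). Lgals9, which encodes galectin-9 and is listed with the inhibitors, rose 2.76-fold (edgeR adjusted p = 0.00104). Irf1, another interferon-induced transcription factor, rose 1.82-fold (edgeR adjusted p = 0.00945). Ctss, a lysosomal cysteine protease of antigen-presenting cells that can cleave endosomal TLRs, rose 2.14-fold (edgeR adjusted p = 0.0403).

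Irf7 and Lgals9 were called in all 20 alternatives of this comparison, Irf1 in 14 and Ctss in 12. Under the Y-linked term, where 1.19% of all genes were called, Irf7 and Lgals9 were the only ones called of the 96. Among genes of lists without a call, the adaptor Ticam1, which encodes TRIF, differed from WT by 0.07 (edgeR adjusted p = 0.81), the co-receptor Cd14 by 0.08 (0.863) and the kinase-complex adaptor Tab2 by 0.06 (0.82). Chuk, which encodes the kinase IKKα, had 117 to 141 CPM in WT and 171 to 198 in Trex1-/- PBS, without overlap (log2 0.53 ± 0.2, edgeR adjusted p = 0.248, called in 2 of 20 settings). Cd36, a scavenger receptor that can act with TLR2, ranged from 53.0 to 459 CPM and did not pass (0.47, edgeR adjusted p = 0.794).

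Among the MyD88 and NF-κB target genes, Nfkbiz differed from WT by 0.31 (edgeR adjusted p = 0.383). Lcn2, which encodes a siderophore-binding protein, had 5.42, 4.56 and 28.2 CPM in WT and 14.2, 17.9 and 9.57 in Trex1-/- PBS, so that its difference of 0.14 (edgeR adjusted p = 0.932) rested on WT replicate 3 and was 1.47 without it (edgeR adjusted p = 0.0157). Ccl2, a chemokine that attracts monocytes, had 3, 18 and 4 counts in WT and 23, 42 and 29 in Trex1-/- PBS, without overlap (4.59-fold, edgeR adjusted p = 0.0646, called in 6 of 19 settings). The other 7 target genes had too few reads to test. Of these, Tnf, Ccl3, Il12b, Saa3 and Acod1 had more CPM in every Trex1-/- PBS library than in any WT library, at no more than 16 counts per library, Cxcl2 had less, and Il6 overlapped. Among all 4847 untested genes with 10 or more counts over these 6 libraries, 8.75% had PBS above WT in this way, and the 5 genes were named after their values were seen. Il12b, with 0, 1 and 1 counts in WT and 9, 8 and 5 in Trex1-/- PBS, was called when no filter was applied.

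In SN-011 against PBS none of the 83 genes was called, with 15 at an unadjusted p under 0.05, beside 1905 of all 16646 genes. Without SN-011 replicate 2, the genes called were Irf5, Cd36, Irf7, Lgals9 and Chuk, all lower with SN-011. None was among the 9 genes, and 2.29% of all genes were called lower. Treatment and sex-linked transcripts cannot be told apart in that fit. In SN-011 against WT 2 of 83 were called, Irf7 and Tlr2, both higher, beside 1.28% of all genes called and 0.823% called higher.

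**Figure D5:**
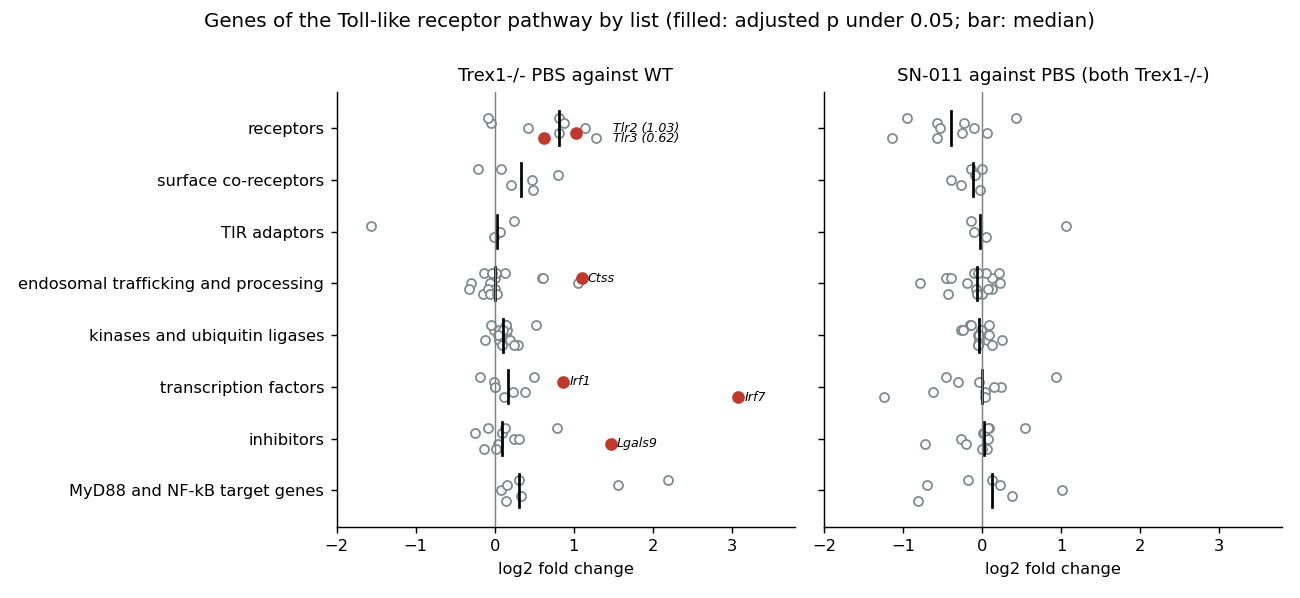
Log2 fold changes of the 83 tested genes of 8 TLR pathway lists in Trex1-/- PBS against WT (left) and in SN-011 against PBS (right). Each circle is a gene, filled with its name where the adjusted p was under 0.05, and the bar is the median of the list; 6 genes are filled on the left and none on the right.

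Across the 9 libraries, the levels of the genes were compared with each other as log2 CPM. The pair with the highest Pearson r was Tlr13 and Unc93b1 (0.922), followed by Tlr3 and Tlr9 (0.868), and Tlr4 had r between -0.159 and 0.566 with the other 7. Among 14842 genes with a mean of at least 1 CPM, the genes most like Unc93b1 were Gtse1 (0.983), Nup210 (0.978) and Dck (0.974), and Nup210 was also among the 3 most like Tlr13 (0.955). The genes most like Tlr2 were Atrip (0.974), Gm15610 (0.973) and Zc3hav1 (0.969), and those most like Tlr3 were Dnaaf2 (0.961), Nfkbie (0.957) and Wdtc1 (0.94). Atrip shares all exonic bases of Trex1. For Myd88 they were Clca3a1 (0.961) and the complement genes C3 (0.944) and C7 (0.944). Those most like Tlr4 were Rad52, Fnip1 and Fbxo30 (0.926 to 0.95), those most like Tlr7 were Cyp4a32, Arpc5l and Zfp874a (0.929 to 0.964), those most like Tlr9 were Gfm2, B3galt1 and Orc3 (0.956 to 0.966), and with Nup210 those most like Tlr13 were Tsku and Casp12 (0.949 to 0.957). All these values are descriptions over the same 9 libraries, which share the group differences and the sex-linked transcripts.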

How the data were processed

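PolyA-selected kidney RNA of 9 libraries was measured by paired-end sequencing. The authors trimmed reads with Trimmomatic, aligned them to mm10 with HISAT2 and deposited raw read counts per Ensembl gene from featureCounts, for uniquely mapped pairs; versions, annotation and the strand setting of the counting are not given in the sources used here. The libraries held 16118813 to 21928965 counts. Of 54532 identifiers, 54409 matched GENCODE vM21 on GRCm38 (mm10), which gave symbols, positions and exon lengths, and 123 did not. Promoters are RefSeq sequences of GRCm38.p6.

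Counts were fitted in edgeR 4.0.16 (R 4.3.3) with TMM scaling, filterByExpr (minimum count 10, total 15; 16646 genes), a mean per group over all 9 libraries, and quasi-likelihood F tests. Genes were called at a Benjamini-Hochberg adjusted p under 0.05 over all genes. Standard errors were derived from the F statistic. CPM use TMM-scaled library sizes. Ratios to 12 macrophage markers were compared by exact permutation. Only the main edgeR fit, in Trex1-/- PBS against WT, was tested on simulated counts.

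The 9 genes, the 8 pathway lists, the marker lists and the tests were chosen with earlier results of these data known. Named genes are the 9 genes, pathway genes called in any comparison, the 2 most abundant genes of each list with none called, the 3 genes with the highest Pearson r to each tested gene, and Rpl29 and Trex1; Irf5, Ccl2, Tlr12, the called marker genes, the untested target genes and the ratio of Tlr3 to Tlr2 were chosen after their values were seen. The paper gives n = 3 per group for the kidneys of treated Trex1-/- mice without naming the unit. The labels do not say whether libraries of a group came from separate animals, so p-values measure the spread between these libraries. Alternatives were other scalings (DESeq2 size factors, upper quartile), filters (none, or a mean of 50 counts) and tests (DESeq2 1.42.0, edgeR's exact test, limma-voom 3.58.1), only the 6 libraries compared, a replicate block, a Y-linked term, only libraries with Y-linked reads, and each library left out.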

Additional observations from a re-analysis of the deposited data

How the results depend on the processing

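Over 20 alternatives, the number of all genes called ran from 153 to 774 in Trex1-/- PBS against WT, from 0 to 519 in SN-011 against PBS and from 38 to 806 in SN-011 against WT. Of the 9 genes, the number called in Trex1-/- PBS against WT (2) fell to 0 under the Y-linked term and with only libraries that carry Y-linked reads, and ran from 0 to 3 on leaving out a library. In SN-011 against PBS it was 1 by DESeq2 and by edgeR's exact test. In SN-011 against WT (1) it was 0 with upper-quartile scaling, limma-voom, the replicate block, only 6 libraries, and without any 1 library.

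Of the 96 pathway genes, the number called in Trex1-/- PBS against WT (6) was 10 without a filter, 2 with the Y-linked term and with only libraries that carry Y-linked reads, and 2 to 10 on leaving out a library. In SN-011 against PBS (0) it was 2 without a filter, 4 by DESeq2, 3 by edgeR's exact test and 0 to 5 on leaving out a library. In SN-011 against WT (2) it was 6 without a filter, 7 by DESeq2 and by edgeR's exact test, 8 with the Y-linked term, 3 with only libraries that carry Y-linked reads, 3 at a mean of 50 counts, 1 with upper-quartile scaling, limma-voom and the replicate block, 0 with only 6 libraries, and 0 to 4 on leaving out a library. With only libraries that carry Y-linked reads, WT and SN-011 have 1 library each, assumed to vary like the others, and the 1 call of the 9 genes in SN-011 against WT was then Tlr7, not Tlr2. The cause of these differences was not tested.

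Some signs turned. Tlr7 in SN-011 against PBS was -0.1 by limma-voom, -0.06 without Trex1-/- PBS replicate 2 and -0.55 to 0.38 on leaving out each SN-011 library, Tlr13 was 0.1 with the Y-linked term in place of -0.54, and Tlr4 in Trex1-/- PBS against WT was 0.03 without PBS replicate 3. In SN-011 against WT, Tlr3 ran from -0.02 (without SN-011 replicate 3 or WT replicate 1) to 0.14 on leaving out a library, and Tlr9 from -0.15 (without WT replicate 1; -0.11 without SN-011 replicate 2) to 0.44.

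Of 216 alternative ratios, 22 moved, all of them ratios to 1 marker in place of 12. Over Csf1r, Trex1-/- PBS minus WT (log2) was 0.74 for Tlr2, 0.34 for Tlr3, -0.37 for Tlr4, 0.55 for Tlr7, -0.03 for Myd88 and 0.35 for Unc93b1, and SN-011 minus WT was 1.01 for Tlr2, 0.28 for Tlr3, 0.55 for Tlr4, 0.43 for Tlr9, 0.35 for Myd88 and 0.46 for Unc93b1. Over Ptprc, PBS minus WT was 0.11 for Tlr2, -0.29 for Tlr3, -0.66 for Myd88 and -0.28 for Unc93b1, SN-011 minus WT was 0.16 for Tlr2, -0.57 for Tlr3, -0.29 for Tlr4, -0.5 for Myd88 and -0.39 for Unc93b1, and SN-011 minus PBS was -0.11 for Unc93b1.

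The labels give no shared source for equal replicate numbers. Deviations of same-numbered libraries correlated at 0.098 to 0.242 between PBS and SN-011 (different numbers: -0.216 to 0.091, so that each of these libraries went best with its own number, a hint from the data only), -0.008 to 0.133 between PBS and WT and -0.294 to 0.238 between SN-011 and WT. With the replicate block the 9 genes gave 2, 0 and 0 calls. Depth limits Tlr7, Tlr8, Tlr9 and Tlr13, with at most 88 counts per library.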
